A study of Mus musculus with 13 samples.

Results

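The immediate early genes described here are Fos, Fosb, Jun, Junb, Jund, Egr1, Atf3, Ier2, Dusp1 and Zfp36, a set of 10 chosen by symbol from the 32285 genes in the count matrices. All 10 had UMIs in every library. They were measured by droplet-based scRNA-seq in 10 colon tumors (COT) and 3 samples of adjacent normal mucosa. The tissue came from 3 C57BL/6J mice of the genotype ApcMin/+; p16cis/cis on a supplemented diet with extra folic acid, vitamin B12, choline and betaine. The genotype and the diet were therefore shared by tumors and mucosa, and no wild-type or control-diet library was analysed here. Methylation of the p16 promoter was not measured in these libraries, so whether it differed between the tissues is not known here. Mouse A (24 weeks of age) gave tumors 5 to 8 and mucosa 2, mouse B (23 weeks) gave tumors 9 and 10 and mucosa 3, and mouse C (20 weeks) gave tumors 1 to 4 and mucosa 1. Mucosa was loosened in EDTA and then treated with TrypLE, whereas tumors were dissociated with an enzymatic tumor dissociation kit. Tissue and dissociation method therefore cannot be told apart in any comparison of tumor with mucosa. Tumors of a mouse are not independent animals, and the p-values measure the spread between libraries.

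Immediate early genes are transcribed within minutes of a stimulus without the need for new protein. The factors that bind their promoters are already present and are switched on by MAP kinases and other signals. Fos and Jun family proteins pair to form the transcription factor AP-1, and Egr1 and Atf3 are further transcription factors of the same early wave. Others of the group, among them Dusp1 and Zfp36, end the response, by removing phosphate from MAP kinases and by speeding the decay of short-lived mRNAs. These genes are also known to be induced in living cells while a tissue is being dissociated, most of all in warm enzymatic steps.

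The sequences just upstream of Fos, Fosb, Junb and Dusp1 are shown because a short core of the cyclic AMP response element, TGACG, which ATF and CREB family factors can bind, recurs in them, and because Dusp1 and Fosb differed between tumor and mucosa in the most cell classes. Each stretch runs from base 150 to base 41 before the RefSeq start of the gene on GRCm38.p6, is written 5′ to 3′ on the strand of the gene, and has the matches to the motifs searched in capitals. The Dusp1 stretch lies within the longer GENCODE span of that gene, and 7 of its bases are in GENCODE exons.
Fos, chr12:85473740-85473849, plus strand: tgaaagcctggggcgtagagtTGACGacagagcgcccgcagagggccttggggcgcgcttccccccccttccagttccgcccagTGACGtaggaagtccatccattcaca
Fosb, chr7:19310086-19310195, minus strand: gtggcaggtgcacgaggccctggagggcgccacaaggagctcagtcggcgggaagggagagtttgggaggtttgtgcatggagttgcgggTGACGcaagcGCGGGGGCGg
Junb, chr8:84978789-84978898, minus strand: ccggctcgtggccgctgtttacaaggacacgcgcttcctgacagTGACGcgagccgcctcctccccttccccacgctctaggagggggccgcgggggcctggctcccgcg
Dusp1, chr17:26508513-26508622, minus strand: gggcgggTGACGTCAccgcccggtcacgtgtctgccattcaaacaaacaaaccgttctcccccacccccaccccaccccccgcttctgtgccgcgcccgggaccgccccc

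Motifs were searched on both strands from 250 bases before to 50 bases after the start in the 8 members with a RefSeq promoter entry and in 27025 promoters in all. TGACG was found in 5 of the 8 (Atf3, Dusp1, Fos, Fosb and Junb) and in 21.0% of all promoters. It was added to the search after the sequences had been seen. It lies within the full element TGACGTCA, which was found in Dusp1 at 143 bases before the start and in 1.88% of all promoters. The Egr1-type motif GCGNGGGCG was found in Fosb and Zfp36 and in 5.55% of all promoters, and the AP-1 motif TGANTCA in none of the 8 and in 7.93% of all. CCAAT was found in Atf3, Jun and Junb and in 37.9% of all, and the CArG box of serum response factor in Zfp36 and in 1.57% of all. These matches describe letters in a short window, and binding was not measured here. The genes lie on 6 chromosomes apart from Egr1, at chr12:85473890-85477273 (Fos), chr7:19302696-19310051 (Fosb), chr4:95049034-95052222 (Jun), chr8:84974484-84978718 (Junb), chr8:70698949-70700616 (Jund), chr1:191170296-191218039 (Atf3), chr8:84661331-84662852 (Ier2), chr17:26505590-26562128 (Dusp1) and chr7:28376784-28380253 (Zfp36), with Egr1 at chr18:34859823-34864984, all by GENCODE vM21 on GRCm38.

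After removal of barcodes with few genes or high mitochondrial content and of doublets, 108495 cells of 137591 barcodes were kept. Tumor libraries held 6916 to 9791 cells and 57221300 to 93157039 UMIs, with median mitochondrial shares of 1.36% to 2.86%. Mucosa libraries held 4917 to 9398 cells and 84883382 to 116133079 UMIs, with 2.72% to 4.56%. Any pair of libraries shared at most 0.352% of cell barcodes. The sex labels of 7 libraries went against the sex-linked genes of the data and sex was not used. Classes of cells were rebuilt by clustering and named from marker lists, and 7 of them held enough cells in both tissues to be compared (T cell-like, B cell-like, plasma cell-like, monocyte or macrophage-like, absorptive epithelial-like, goblet-like and erythroid-like). Neutrophil-like cells made up 22.8% to 38.1% of tumor libraries and numbered 26760, against 54 in all mucosa. Tumor epithelial-like cells numbered 7796 against 6, and neither class could be compared between the tissues.

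Levels within the tumors were compared over the 11 named classes with at least 20 cells in at least 8 tumors. Epithelial and immune clusters without a class name, with 6386 and 2713 tumor cells, were left out. Neutrophil-like cells had the highest median level of 5 of the 10 genes among these 11 classes. The share of all genes that are highest in neutrophil-like cells was not counted. Levels are given as UMIs of the gene per 1000000 UMIs summed over the cells of a class in a library (CPM). Dusp1, a phosphatase that inactivates MAP kinases, reached a median of 1144 CPM (lowest tumor 1055, highest 1550) in neutrophil-like cells. The next class, the monocyte or macrophage-like cells, had a median of 405 CPM and a highest tumor of 469, so the classes did not overlap. Zfp36, which binds and destabilises cytokine mRNAs, had a median of 563 CPM in neutrophil-like cells (391 to 776) and 357 CPM in monocyte or macrophage-like cells (260 to 447), with overlapping ranges. The medians of Fos (811 CPM), Fosb (234 CPM) and Egr1 (423 CPM) were also highest in neutrophil-like cells, but each overlapped with the next class over the tumors.

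The genes of the Jun family had different orders over the classes. Jun, the first named partner of Fos in AP-1, had its highest medians in epithelial classes, at 1069 CPM in Paneth-like, 864 CPM in tumor epithelial-like and 754 CPM in absorptive epithelial-like cells. Its medians were 164 CPM in B cell-like and 240 CPM in T cell-like cells. Junb, a Jun relative with a known place in lymphocyte differentiation, had another order, with 3424 CPM in NK or innate lymphoid-like, 2663 CPM in T cell-like and 2588 CPM in B cell-like cells. It had 645 CPM in tumor epithelial-like cells and 110 CPM in plasma cell-like cells. The lowest T cell-like value of Junb (2056 CPM) was above its highest value in goblet-like cells (730 CPM). Jund, the member of the family that is usually made at a steady level, had its highest median in B cell-like cells at 1830 CPM. It did not divide by compartment, with 870 CPM in absorptive epithelial-like and 401 CPM in monocyte or macrophage-like cells. Ier2, a small nuclear protein of the early response, had its highest in NK or innate lymphoid-like cells at 550 CPM. Atf3, a stress-induced repressor of the ATF family, had medians of 401 CPM in tumor epithelial-like and 387 CPM in neutrophil-like cells, which overlapped, and 9.84 CPM in plasma cell-like cells. Plasma cell-like cells had the lowest median of the 11 classes for Atf3, Dusp1, Ier2 and Junb, and dendritic cell-like cells for Fos, Fosb, Jun, Jund and Egr1. The dendritic cell-like class was a single cluster of 973 tumor cells led by Ccr7, Fscn1 and Ccl22. An immune cluster of 2366 tumor cells led by Cst3 and Ccl17 had no class name. It was not ranked, so the low levels are not read as a trait of all dendritic cells.

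**Figure D1:**
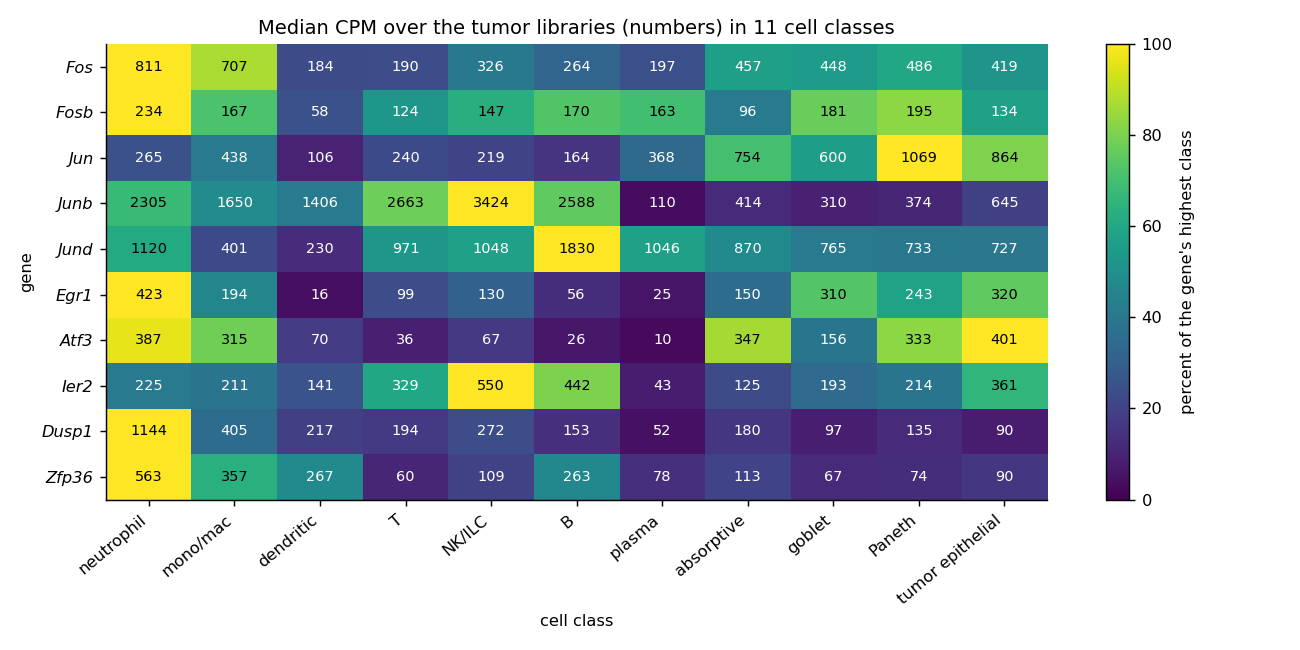
Heat map of the median CPM over the tumor libraries for the 10 genes (vertical axis) in 11 named cell classes (horizontal axis). Color gives the percent of the gene's own highest class, with neutrophil-like cells highest for Fos, Fosb, Egr1, Dusp1 and Zfp36, epithelial classes highest for Jun, and lymphoid classes highest for Junb, Jund and Ier2.

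Within the myeloid classes the genes also differed between clusters, and these values describe the cells that were clustered. Of the neutrophil-like clusters, the one led by Ccl3 and Ccrl2 had medians of 2596 CPM for Dusp1 (2240 to 3278 over the tumors), 1060 CPM for Atf3 (802 to 1472) and 1640 CPM for Jun (723 to 2023). The most numerous neutrophil-like cluster had 1159 CPM, 321 CPM and 164 CPM for the same genes, with no overlap for any of them. Among the macrophage clusters, Fos had a median of 1178 CPM in the cluster led by Ccr2 and Nr4a2 and 395 CPM in the cluster led by Ccl24 and Arg1. Egr1 had 346 CPM in the C1qa cluster and 99.3 CPM in the Chil3 and Ly6c2 cluster.

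To determine whether the genes differed between colon tumors and adjacent mucosa, UMIs were first summed over all cells of each library. All 10 genes passed the test and all were higher in tumors, at a background of 35.9% of 17447 genes called higher and 33.9% called lower (edgeR quasi-likelihood test, Benjamini-Hochberg adjusted over all genes, here and throughout). These sums mix cell types, so that more cells of a type and more RNA per cell cannot be told apart. Monocyte or macrophage-like cells made up 18.8% to 30.6% of the cells in each tumor, against 0.436% to 0.900% in mucosa.

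Of the Fos family, Fos was measured at 183, 200 and 191 CPM in mucosa 1, 2 and 3 and at 414 to 658 CPM in tumors (median 507), a log2 fold change of 1.42 ± 0.17 (SE; adjusted p = 6.46e-06). Fosb was at 21.0, 30.6 and 35.0 CPM in mucosa and 108 to 217 CPM in tumors (median 158; log2 fold change 2.48 ± 0.25, adjusted p = 1.23e-06). For both genes the mucosa libraries lay below every tumor. In the Jun family, Junb was at 199, 155 and 178 CPM in mucosa against 711 to 1559 CPM in tumors (median 1169; 2.72 ± 0.26, adjusted p = 8.18e-07). Jun was at 158, 291 and 243 CPM against 326 to 788 CPM (median 592; 1.23 ± 0.31, adjusted p = 0.00266). Jund differed least in this family, with 510, 499 and 614 CPM in mucosa and 608 to 1092 CPM in tumors (median 750; 0.52 ± 0.18, adjusted p = 0.0173), and its groups overlapped.

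Dusp1 and Atf3 showed the widest separation. Dusp1 was at 26.1, 17.1 and 15.9 CPM in mucosa and at 244 to 433 CPM in tumors (median 292; 3.97 ± 0.24, adjusted p = 1.98e-08). Atf3 was at 22.8, 21.7 and 21.5 CPM and at 207 to 353 CPM (median 291; 3.75 ± 0.20, adjusted p = 6.4e-09). The mucosa libraries were close together for each gene and far below the lowest tumor. Egr1, a zinc finger factor, was at 47.1, 35.6 and 34.8 CPM against 134 to 361 CPM (median 229; 2.60 ± 0.30, adjusted p = 4.38e-06). Zfp36 was at 47.0, 43.8 and 45.8 CPM against 158 to 316 CPM (median 209; 2.27 ± 0.24, adjusted p = 2.26e-06). Ier2 differed least of the 10, at 198, 191 and 193 CPM in mucosa and 200 to 339 CPM in tumors (median 241; 0.34 ± 0.14, adjusted p = 0.0448).

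Every tumor was above every mucosa for 9 of the 10 genes, all but Jund, against 25.2% of 13360 genes with a mean of at least 1 CPM. For these 9 genes it follows that the mean of the tumors was above the mouse's own mucosa in each of the 3 mice. It was above for Jund as well, and the share of all genes was not counted. The calls of Ier2 and Jund were the ones that a library could end. Ier2 had adjusted p-values from 0.0510 to 0.107 without mucosa 1, 2 or 3 or tumor 2, 6, 7, 8 or 9, at log2 fold changes of 0.33 to 0.36. Jund had 0.46 (adjusted p = 0.0729) without mucosa 1 and 0.48 (adjusted p = 0.0671) without mucosa 2.

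**Figure D2:**
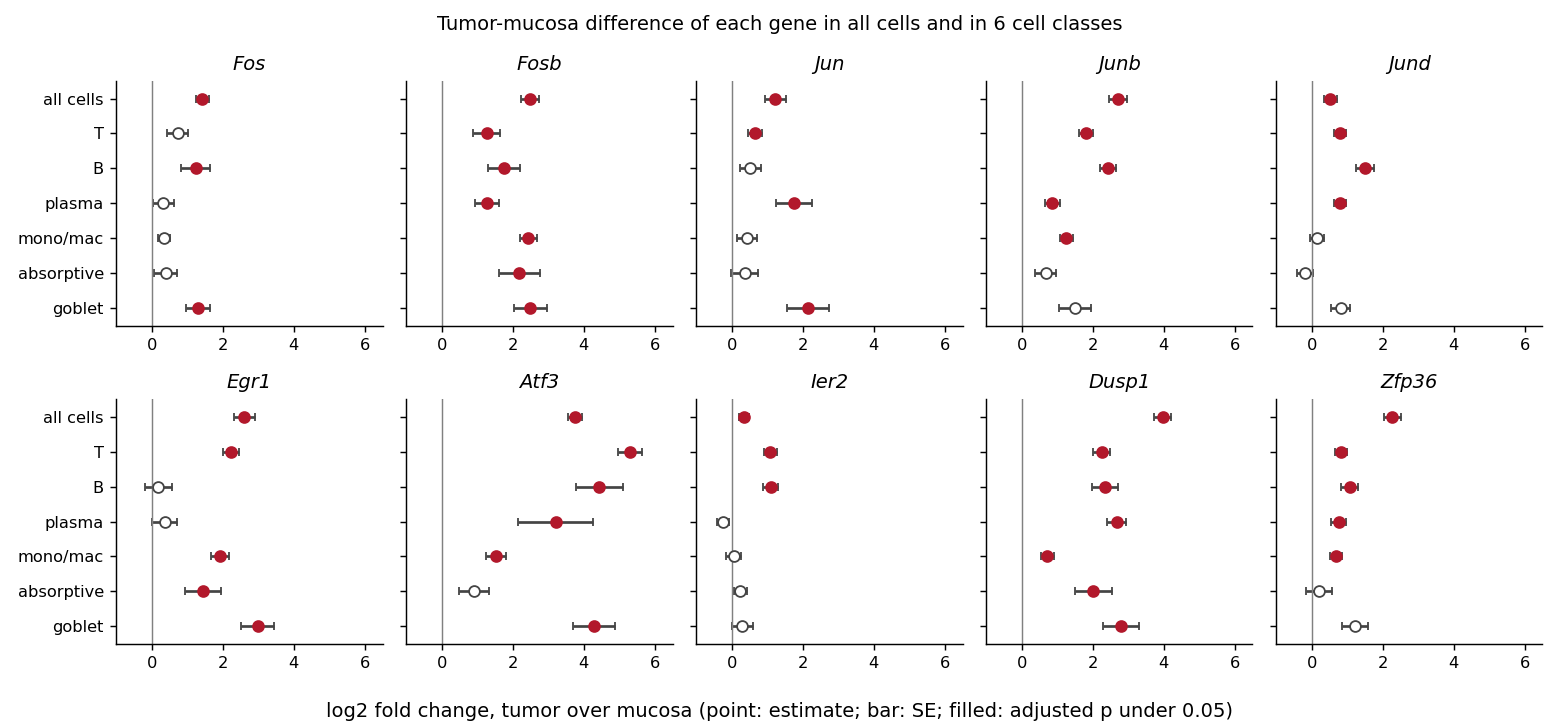
Log2 fold change of tumor over mucosa (horizontal axis) for each of the 10 genes in the all-cell sums and in 6 cell classes (vertical axis), with points for the estimate, bars for the SE and filled points for an adjusted p under 0.05. The classes with filled points differ from gene to gene, from all 6 classes for Dusp1 and Fosb to the T and B cell-like cells alone for Ier2.

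Whether the tumor-mucosa difference was shared by all classes was then asked within each class. Of 65 tests of a member in a class, 39 were called higher in tumors and 0 lower by edgeR (41 and 0 by DESeq2), with 46 higher and 0 lower at an unadjusted p under 0.05 in either tool. Over all genes the edgeR shares of a class ran from 0.0% (erythroid-like) to 20.5% (T cell-like) called higher. Those called lower ran from 0.14% (erythroid-like) to 21.4% (B cell-like). The 65 tests share libraries and are not separate observations. In CPM, Ier2 in plasma cell-like cells was the single case in which the tumor mean was below the mouse's own mucosa in all 3 mice. Dusp1, which ends MAP kinase signaling, and Fosb were called in each of the 6 classes other than erythroid-like cells. Atf3 was called in 5 classes, among them plasma cell-like cells, where its level in tumors overlapped that of epithelial markers as a percent of the other cells. Junb, Egr1 and Zfp36 were called in 4 classes, Jun and Jund in 3, and Fos and Ier2 in 2. The median over all genes moved by over 0.1 on the log2 scale in 6 of the classes when TMM scaling was replaced by library size alone, most in plasma cell-like cells (from 0.03 to -0.53).

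In T cell-like cells 9 of the 10 genes were higher in tumors, all but Fos, against 20.5% of 10436 genes called higher and 20.8% called lower. Atf3 was near its floor in mucosa, at 0.676, 0.974 and 1.34 CPM, and at 21.8 to 49.2 CPM in tumors (median 35.9; 5.30 ± 0.35, adjusted p = 2.16e-09). Dusp1 was at 66.3, 33.1 and 33.6 CPM against 148 to 243 CPM (2.25 ± 0.23, adjusted p = 5.43e-07). Egr1 was at 24.2, 32.6 and 17.2 CPM against 69.8 to 145 CPM (2.23 ± 0.22), and Junb at 970, 734 and 834 CPM against 2056 to 3294 CPM (1.81 ± 0.20). For these genes, and for Ier2 (1.08 ± 0.18), Zfp36 (0.82 ± 0.17) and Jund (0.80 ± 0.17), every tumor was above every mucosa, 7 of 10 against 9.51% of genes. Fos, at 106, 196 and 139 CPM in mucosa and 121 to 378 CPM in tumors, missed the threshold (0.73 ± 0.29, adjusted p = 0.0556), and it passed with the mouse as a block (0.76, adjusted p = 0.0396), and at 0.77 to 0.95 (adjusted p = 0.0265 to 0.0494) without mucosa 2 or tumor 1, 5, 8 or 9. The calls of Jun (0.65 ± 0.21) and Fosb (1.26 ± 0.39) rested on single mucosa libraries. Jun was at 0.49 (adjusted p = 0.108) without mucosa 1, 0.63 (adjusted p = 0.0670) without mucosa 3 and 0.45 (adjusted p = 0.0778) under library size alone. Fosb was at 0.78 (adjusted p = 0.0513) without mucosa 1.

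The T cell-like cells of the tissues were not of the same kind. A cluster led by Gzma, Cd7 and Cd160 held 85.9% of those in mucosa and 7.31% of those in tumors. A cluster led by Il17a, Icos and Ctla4 held 8.46% and 73.8%. Fitted alone, which was decided after seeing the data, the Gzma cluster had 5 of 9 tested members higher in tumors, at a background of 10.9%. They were Egr1 at 2.42, Dusp1 at 2.22, Junb at 1.66, Ier2 at 1.16 and Fos at 0.79 on the log2 scale. The Il17a cluster had 6 of 10 at a background of 7.96%, with Atf3 at 4.07, Fosb at 1.71, Dusp1 at 1.53 and Junb at 1.50 among them. A cluster led by Cd8b1 and Tcf7 had 6 of 9 at 4.69%, with Fosb at 2.68, Egr1 at 2.24 and Junb at 1.65. Dusp1, Egr1, Ier2 and Junb were thus called higher in each of these 3 clusters. Jund, Zfp36 and Jun, called in the class as a whole, were called in none of them. In the Il17a, Gzma and Cd8b1 clusters Jund was at 0.45, 0.0239 and 0.34, Zfp36 at 0.52, 0.51 and 0.40 and Jun at 0.56, -0.059 and 0.83 (adjusted p = 0.0758 to 0.955 over these values).

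B cell-like cells had 8 of 10 genes higher in tumors, against 18.2% of 5690 genes called higher and 21.4% called lower. Junb was at 542, 384 and 507 CPM in mucosa and at 1869 to 3912 CPM in tumors (median 2588; 2.42 ± 0.22, adjusted p = 2.31e-08). Jund was at 794, 456 and 719 CPM against 990 to 3216 CPM (1.50 ± 0.25, adjusted p = 6.95e-05). Both genes were above the mucosa in every tumor, as were Dusp1 (2.33 ± 0.37), Ier2 (1.09 ± 0.22) and Atf3, so that 5 of 10 did not overlap against 4.04% of genes. Atf3 rested on 3 UMIs in the mucosa and 264 in the tumors, a ratio of CPM of 23.7 with a 95% interval of 8.02 to 116 that covers counting error only. Egr1 did not pass here, with 17.3, 96.1 and 72.6 CPM in mucosa, 25.3 to 133 CPM in tumors and a log2 fold change of 0.18 ± 0.37 (adjusted p = 0.738). Jun did not pass either (0.52 ± 0.29, adjusted p = 0.157). The call of Fos (1.23 ± 0.40, adjusted p = 0.0182) was lost without mucosa 1 (1.16, adjusted p = 0.0506), without mucosa 3 (1.20, adjusted p = 0.0663) and in DESeq2 (1.18, adjusted p = 0.0611).

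In plasma cell-like cells 7 of 10 genes were called higher, at a background of 9.52% of 9278 genes called higher and 10.8% called lower. Of these 7, only Dusp1 had groups apart in CPM. In the larger plasma cell-like cluster fitted alone 4 of 10 were called, at a background of 4.82%. Dusp1 was at 14.0, 12.2 and 9.94 CPM in mucosa and at 36.8 to 70.6 CPM in tumors (median 52.2; 2.67 ± 0.28, adjusted p = 1.45e-05). Such a separation was found in 1.89% of genes. Immunoglobulin genes took 33.3% to 49.7% of the UMIs of these cells in mucosa and 49.9% to 61.4% in tumors. TMM scaling and plain CPM differed most in this class. Ier2, at 80.7, 82.4 and 68.2 CPM in mucosa and 32.1 to 55.4 CPM in tumors, was below the mucosa in every tumor in CPM. The share of all genes apart in that direction was not counted. Ier2 missed the threshold with TMM (-0.24 ± 0.16, adjusted p = 0.323) and was called lower with library size alone (-0.81, adjusted p = 0.00133). Junb (0.85 ± 0.21), Jund (0.81 ± 0.17) and Zfp36 (0.76 ± 0.21) were called with TMM. With library size alone they had 0.26 (adjusted p = 0.386), 0.25 (adjusted p = 0.305) and 0.19 (adjusted p = 0.492). Jun (1.75 ± 0.51), Fosb (1.27 ± 0.34) and Atf3 (3.20 ± 1.05, on mucosa values of 0, 6.10 and 0 CPM) completed the calls. Over all genes 883 were called higher and 1005 lower with TMM, and 237 and 3588 with library size alone. The number called was 3 without mucosa 1 and 3 without mucosa 2, and Atf3 was also lost without mucosa 3 or tumor 5, 7, 8 or 9 (2.52 to 3.20, adjusted p = 0.0516 to 0.158).

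Monocyte or macrophage-like cells had 6 of 10 genes higher in tumors, against 6.32% of 12031 genes called higher and 1.78% called lower. The mucosa libraries held 36 to 74 of these cells each. Fosb was at 48.6, 25.6 and 40.7 CPM in mucosa and 131 to 206 CPM in tumors (median 167; 2.44 ± 0.24, adjusted p = 1.88e-05). Egr1 was at 87.4, 76.7 and 47.5 CPM against 146 to 244 CPM (1.92 ± 0.24), and Junb at 923, 1023 and 793 CPM against 1225 to 2033 CPM (1.25 ± 0.18). These and Atf3 (243, 102 and 102 CPM against 249 to 445 CPM; 1.53 ± 0.28) were above the mucosa in every tumor, 4 of 10 against 10.2% of genes. Fos, by contrast, was at 894, 614 and 685 CPM in mucosa and 567.9 to 839 CPM in tumors (0.34 ± 0.17, adjusted p = 0.269), within the same range in both tissues. Clusters took different shares of the class in the tissues. The cluster led by Ccl24 and Arg1, with a tumor median of 395 CPM for Fos, held 4.64% of its cells in mucosa and 25.8% in tumors, and the cluster led by Ccr2 and Nr4a2, with 1178 CPM, held 20.5% and 11.3%. The mucosa shares of these clusters rest on 7 and 31 cells, and other clusters held the rest of the class. The part of this make-up in the Fos result was not tested. Over all genes 760 were called higher and 214 lower with TMM, 272 and 678 with library size alone and 546 and 586 in DESeq2. The median of all genes was 0.24 in this class with TMM and -0.14 with library size alone. Relative to it the changes were 2.19 for Fosb, 1.68 for Egr1, 1.29 for Atf3, 1.01 for Junb, 0.48 for Dusp1 and 0.44 for Zfp36. The calls of Dusp1 (0.72 ± 0.19) and Zfp36 (0.68 ± 0.17) were lost with library size alone (0.32 and 0.29, adjusted p = 0.331 and 0.403) and without mucosa 3 (0.53 and 0.57, adjusted p = 0.221 and 0.179). They were also lost for Dusp1 without mucosa 2 (0.74, adjusted p = 0.0639) and for Zfp36 without mucosa 1 (0.71, adjusted p = 0.0739).

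Absorptive epithelial-like cells had 3 of 10 genes called higher, against 13.1% of 8347 genes called higher and 14.7% called lower. Fosb was at 42.5, 10.4 and 11.4 CPM in mucosa and 47.8 to 201 CPM in tumors (2.18 ± 0.57, adjusted p = 0.00919). Dusp1 was at 90.8, 29.1 and 25.4 CPM against 97.7 to 378 CPM (2.01 ± 0.52, adjusted p = 0.00832), and Egr1 was at 96.3, 44.8 and 31.9 CPM against 63.6 to 332 CPM (1.44 ± 0.51, adjusted p = 0.0448). Mucosa 1, with 152 of these cells against 1816 and 1198, was the highest of the mucosa libraries for all 3 genes. It was also the highest for Atf3, at 330 CPM against 75.5 and 87.8 CPM. Without mucosa 1, Atf3 was called as well (1.98, adjusted p = 0.00104, against 0.91, adjusted p = 0.125 with all libraries). Junb was called without tumor 3 (0.79, adjusted p = 0.0326, against 0.67, adjusted p = 0.0986). Without mucosa 2 or mucosa 3 the count was 0 of 10, with Dusp1 at 1.72 (adjusted p = 0.0572) and 1.66 (adjusted p = 0.0697). The call of Egr1 was also lost without tumor 1, 5, 7 or 9 (1.36 to 1.47, adjusted p = 0.0597 to 0.0723) and with the mouse as a block (1.32, adjusted p = 0.0687). It was lost too with a 10% mitochondrial limit (1.17, adjusted p = 0.0906), with doublets kept (1.30, adjusted p = 0.0516) and with the tumors of each mouse summed (1.24, adjusted p = 0.0865). Different clusters held most of the class in the tissues, 83.4% of the mucosa cells and 2.96% of the tumor cells lying in one and 16.6% and 97.0% in the other. In the latter, led by Clca4b and Saa1 and fitted alone, 5 of 10 genes were higher in tumors, at a background of 5.83%. They were Fosb at 2.75, Egr1 at 2.51, Dusp1 at 2.26, Jun at 1.53 and Atf3 at 1.50.

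Goblet-like cells, compared in 8 tumors with enough of them, had 6 of 10 genes called higher, against 4.31% of 6983 genes called higher and 2.84% called lower. Atf3 was at 14.9, 13.2 and 15.4 CPM in mucosa and 104 to 628 CPM in tumors (median 156; 4.29 ± 0.59, adjusted p = 0.00117). Egr1 was at 66.2, 43.5 and 46.0 CPM against 183 to 784 CPM (2.98 ± 0.46, adjusted p = 0.00185), and Dusp1 at 21.4, 19.9 and 23.0 CPM against 63.6 to 382 CPM (2.79 ± 0.52, adjusted p = 0.00576). The mucosa libraries lay below every tumor for these genes and for Fosb (2.49 ± 0.46), Jun (2.15 ± 0.59), Fos (1.30 ± 0.35) and Zfp36, so that 7 of 10 did not overlap against 2.41% of genes. The mucosa values of Jun were spread, at 135, 285 and 230 CPM, with the highest near the lowest tumor (307 CPM). Zfp36 (1.22 ± 0.37, adjusted p = 0.0561) and Junb (1.50 ± 0.45, adjusted p = 0.0553) missed the threshold. Junb passed it with the mouse as a block (1.37, adjusted p = 0.0332) or without tumor 2, 3 or 4 (1.61 to 1.62, adjusted p = 0.0381 to 0.0429). Zfp36 passed it without tumor 2 (1.32, adjusted p = 0.0457) or tumor 7 (0.93, adjusted p = 0.0217). The calls of Fos (adjusted p = 0.0364) and Jun (adjusted p = 0.0400) were each lost without any 1 of the mucosa libraries 1, 2 or 3 or without tumor 5 or tumor 10, at 1.17 to 1.32 for Fos and 1.90 to 2.37 for Jun. The median mitochondrial share of these cells was 3.31% to 4.64% in mucosa and 6.49% to 13.2% in the 8 tumors, with no overlap, and it was highest in tumor 7. With a 10% mitochondrial limit 4 of the 10 genes were called, at 145 higher calls over all genes against 301, and Fos (1.36, adjusted p = 0.0727) and Jun (2.07, adjusted p = 0.0691) were not. The part of the mitochondrial share in the result was not tested. In the cluster led by Zg16 and Clca1, with 358 tumor and 1091 mucosa cells, 6 genes were called at a background of 3.31%. In the cluster led by Retnlb and Muc2, with 157 and 2786 cells, Atf3 (3.63) and Egr1 (2.35) were called at a background of 0.608%.

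**Figure D3:**
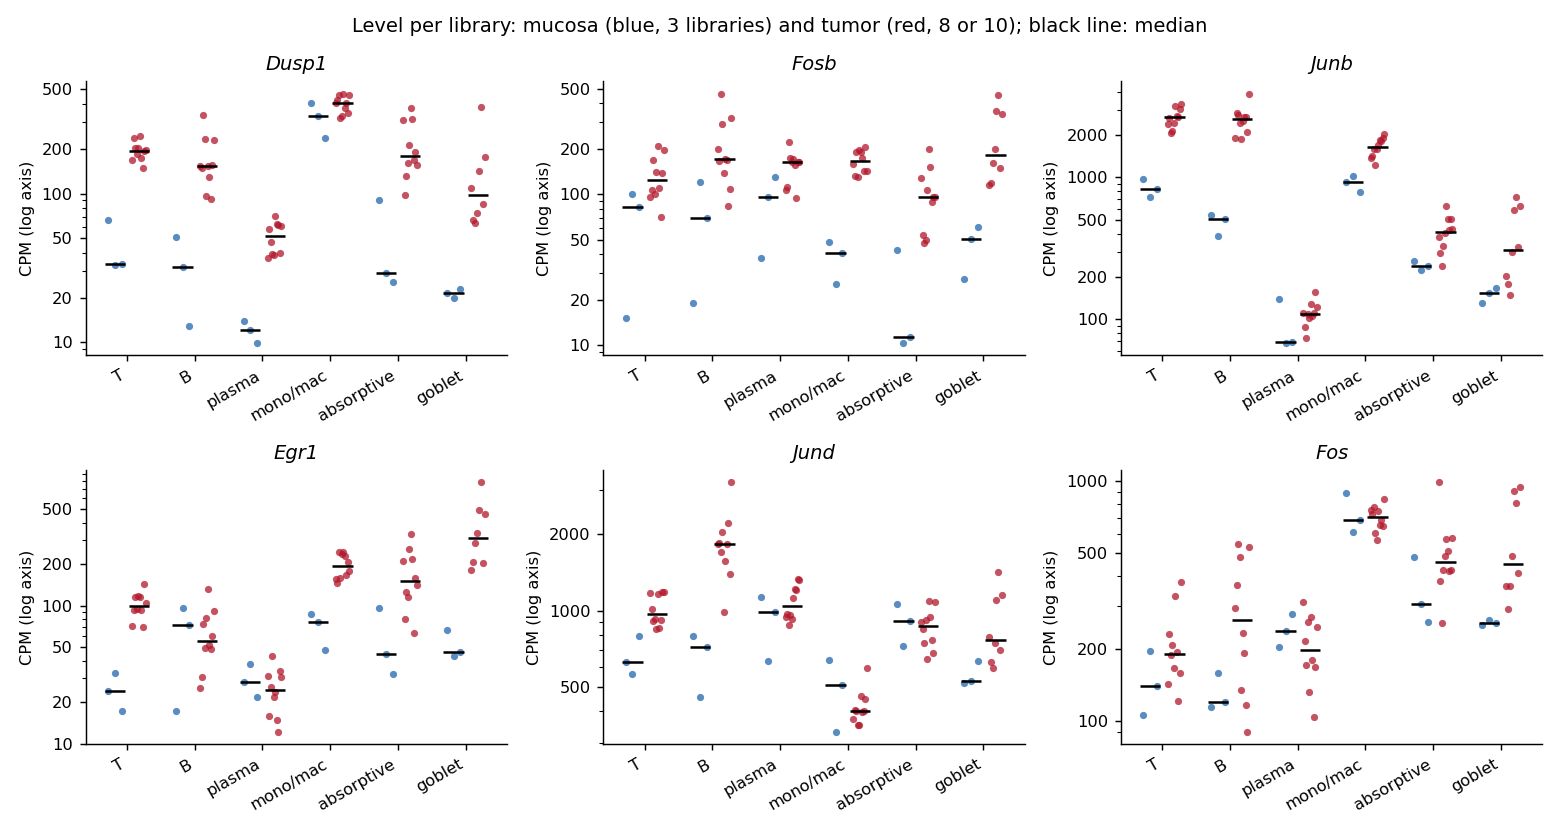
CPM of Dusp1, Fosb, Junb, Egr1, Jund and Fos in each library (vertical axis, log scale) by cell class (horizontal axis), with mucosa in blue, tumors in red and a black line at the median. Dusp1 lies above the mucosa in every tumor in T, B, plasma, absorptive epithelial-like and goblet-like cells, but not in monocyte or macrophage-like cells, where mucosa already had 237 to 403 CPM.

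Among the epithelial clusters without a class name, those with enough cells in both tissues gave the same direction. The others could not be compared. They were a cluster with 74.8% of such cells in tumors and clusters with 47.5% and 23.7% of those in mucosa. In the cycling cluster led by Hist1h1b and Top2a, with 159 tumor and 1570 mucosa cells and 3 tumor libraries with enough of them, 10 of 10 genes were called higher at a background of 8.37%. They ran from 5.08 for Atf3 and 3.85 for Dusp1 to 0.86 for Jund and 0.85 for Ier2 on the log2 scale. A cluster led by Wfdc2 and Aqp4 had 7 of 10 at a background of 5.5%, headed by Atf3 at 4.94 and Dusp1 at 3.48. Over all epithelial cells without a class name the median mitochondrial share was 3.65% to 4.67% in mucosa and 5.70% to 13.3% in tumors, with no overlap, and its part in these counts was not tested. Erythroid-like cells, compared in 3 tumors of mouse C and 3 mucosa libraries, had 0 of 5 tested members called by edgeR and 0 by DESeq2, with 1 at an unadjusted p under 0.05 in each. Over all genes 2 of 1426 genes passed and 111 had an unadjusted p under 0.05 (0.0% called higher and 0.14% called lower). In CPM 4 of 10 were above the mucosa in every tumor, against 8.08% of genes. The log2 fold changes were 1.85 ± 0.52 for Jun (adjusted p = 0.271) and 1.22 ± 0.59 for Fos (adjusted p = 0.715).

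The classes were next compared with each other in a single fit with the library as a block, to test the difference between classes itself. The tumor-mucosa difference varied among the 7 classes for Atf3 (adjusted p = 3.69e-07), Jund (2.48e-05), Egr1 (3.0031e-05), Jun (8.93e-05), Junb (0.000133), Ier2 (0.000206) and Dusp1 (0.0184), 7 of 10 against 55.1% of 12831 genes. The count of 7 is near the share over all genes and is not read as particular to the members. Several classes were also made up of different clusters in the tissues. For Fos (adjusted p = 0.403), Fosb (0.424) and Zfp36 (0.233) a difference among classes was not detected. In the contrast of immune minus epithelial classes, where 14.2% of genes were higher in the immune and 8.13% in the epithelial classes, Junb (0.71 ± 0.19, adjusted p = 0.00278) and Jund (0.67 ± 0.16, adjusted p = 0.00134) had the larger tumor-mucosa difference in immune classes. Egr1 (-0.87 ± 0.29, adjusted p = 0.0211) had it in epithelial classes. The numbers of members called on each side are near the shares over all genes and are not read as particular to the members. The values are contrasts of class means, and in the separate fits the classes of the compartments overlapped. Egr1 ran from 0.18 (B cell-like) to 2.23 (T cell-like) in immune classes, against 1.44 in absorptive epithelial-like and 2.98 in goblet-like cells. Junb ran from 0.85 (plasma cell-like) to 2.42 (B cell-like), against 0.67 and 1.50. Jund ran from 0.14 (monocyte or macrophage-like) to 1.50 (B cell-like), against -0.20 and 0.82. Both Jun family calls depended on the scaling, at 0.31 (adjusted p = 0.249) and 0.27 (adjusted p = 0.170) with library size alone. That scaling turned the split of all called genes from 1819 immune-higher and 1043 epithelial-higher to 576 and 2507. The call of Egr1 was lost without mucosa 2 (-0.41, adjusted p = 0.467), without mucosa 3 (-0.65, adjusted p = 0.200) and without tumor 7 (-0.65, adjusted p = 0.0703). Atf3 (1.27 ± 0.51, adjusted p = 0.0652) and Ier2 (0.37 ± 0.15, adjusted p = 0.0696) missed the threshold. Atf3 passed at 1.34 to 3.06 without mucosa 2 or 3 or tumor 1, 3, 4, 7 or 10. Ier2 passed at 0.42 to 0.71 without mucosa 1 or tumor 1, 3, 4, 6, 7, 8, 9 or 10, and Fosb (-0.40 ± 0.38) at -0.96 (adjusted p = 0.0380) without mucosa 1. Dusp1 differed by -0.18 ± 0.28 and Fos by -0.08 ± 0.26 between the compartments.

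RNA released from other cells can enter droplets, so the level of each gene in the tumors was set beside markers of cell types that lymphoid cells should lack. In T cell-like cells, neutrophil markers were at 1.30% (0.686% to 2.93% over the tumors) of their level in all other cells of the library, monocyte or macrophage markers at 3.62% (2.48% to 7.40%) and epithelial markers at 1.97% (1.02% to 3.80%). These markers also differed between the tissues. Neutrophil markers had medians of 5.36 CPM in mucosa and 292 CPM in tumors in T cell-like cells, 9.08 and 340 CPM in B cell-like cells and 2.04 and 134 CPM in plasma cell-like cells. Epithelial markers went the other way, at 626 and 83.0 CPM, 415 and 133 CPM and 262 and 195 CPM in the same order. In mucosa T cell-like cells monocyte or macrophage markers were at 36.2% of their level in other cells, and Atf3 at 4.37%. The part of such RNA in the tumor-mucosa differences was not tested. In T cell-like cells of the tumors the medians of the 10 genes lay above the marker percents, from Atf3 at 11.3% (6.67% to 22.5%) and Zfp36 at 27.0% to Ier2 at 132%, Jund at 139% and Junb at 235%. B cell-like cells gave the same picture, with Atf3 at 9.37% (2.07% to 14.8%) against marker medians of 1.65% to 2.89%, although epithelial markers reached 16.2% in a tumor. In plasma cell-like cells Atf3, at 3.22% (0.747% to 6.54%), was within the range of epithelial markers (4.32%, 2.62% to 5.19%), and above the medians of monocyte or macrophage markers (0.766%, 0.547% to 1.64%) and neutrophil markers (0.437%, 0.121% to 0.844%), so its level there is not told apart from that of epithelial markers. Junb (8.54%, lowest 7.51%) and Dusp1 (15.3%, lowest 11.3%) were above it in every tumor. In erythroid-like cells 8 of the 10 genes were at or below the median of the epithelial markers (9.85%), the exceptions being Jun (15.2%) and Jund (19.2%). The epithelial classes also held neutrophil markers in tumors. These were at a median of 928 CPM (4.01%, up to 10.6% of their level in other cells) in tumor goblet-like cells against 0.843 CPM in mucosa, and at 1534 CPM (5.42%, up to 10.2%) in tumor absorptive epithelial-like cells against 82.6 CPM. The medians of the 10 genes in tumors were 26.0% (Junb) to 147% (Egr1) in goblet-like and 35.0% (Junb) to 124% (Jun) in absorptive epithelial-like cells, and the part of other cells' RNA in the tumor-mucosa differences of these classes was not tested.

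**Figure D4:**
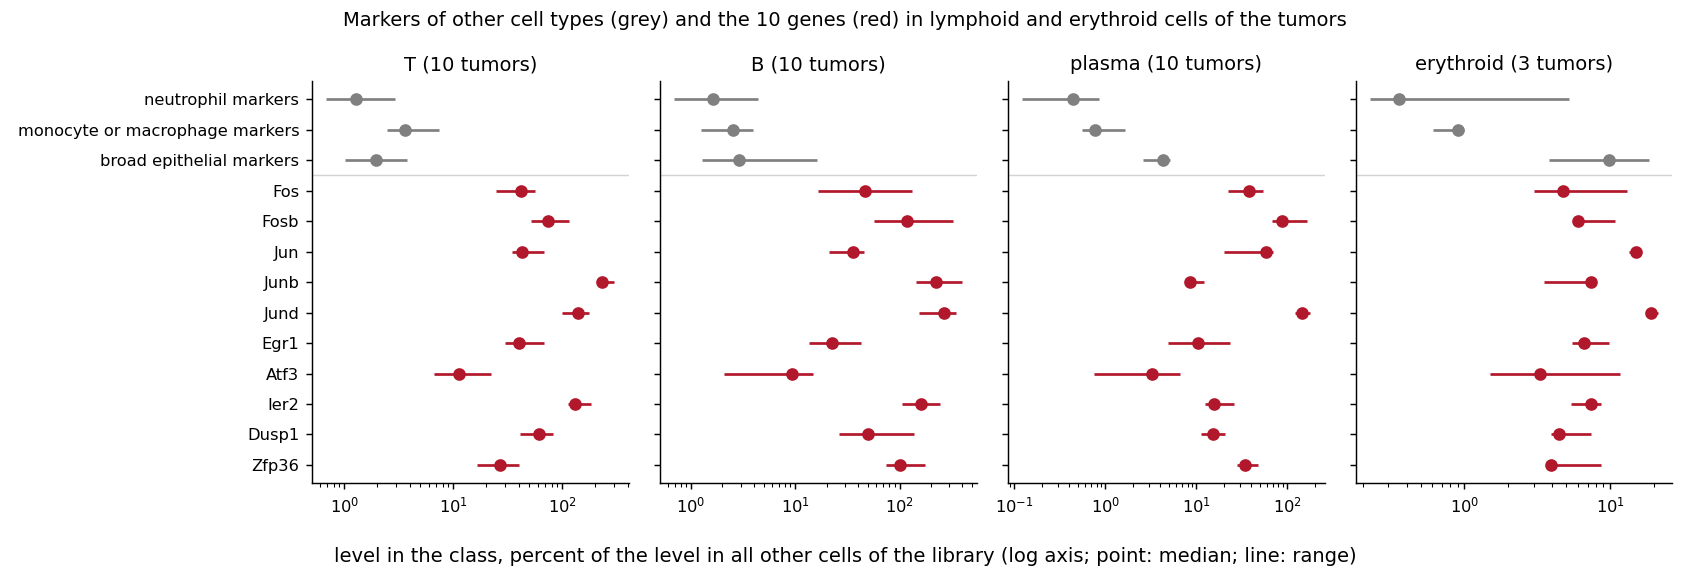
Level in T, B, plasma and erythroid-like cells of the tumors as a percent of the level in all other cells of the same library (horizontal axis, log scale; point for the median, line for the range) for markers of other cell types in grey and the 10 genes in red. In T and B cell-like cells the red points lie to the right of the grey ones, and in plasma cell-like cells Atf3 lies among them.

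The share of cells with at least 1 UMI of a gene was taken after each cell was thinned to 1000 UMIs, since depth differed between the tissues, and shallower cells were left out. Over all cells the median was higher in mucosa (7198 to 9461 against 3575 to 4994 UMIs), but T cell-like cells had 1292 to 3672 UMIs in mucosa and 3034.5 to 4391 in tumors, and plasma cell-like cells 6091 to 13830 and 14198 to 18504.5. The limit of 1000 UMIs kept 4337 of 4859 mucosa and 6691 of 6868 tumor T cell-like cells. In T cell-like cells 4.37 ± 1.60% (SD, n = 3) carried a Dusp1 UMI in mucosa and 18.7 ± 2.79% (n = 10) in tumors, and 49.5 ± 3.59% and 83.6 ± 3.03% carried a Junb UMI. The unthinned shares were 9.95% and 44.8% for Dusp1 and 66.8% and 96.1% for Junb. In plasma cell-like cells the thinned share for Dusp1 was 1.16 ± 0.51% in mucosa and 4.83 ± 1.56% in tumors (8.23% and 39.1% unthinned). In absorptive epithelial-like cells it was 4.29 ± 2.58% and 20.4 ± 5.29% (28.9% and 62.6% unthinned). In goblet-like cells the share for Egr1 was 4.72 ± 0.529% and 26.3 ± 11.6% (n = 8; 38.5% and 56.2% unthinned). Erythroid-like cells were assumed, without a test, to hold little Dusp1 of their own. They had unthinned Dusp1 shares of 1.34% in the mucosa and 6.00% in the 3 tumors with enough of them. Their median depths were 2700 to 8235 UMIs in mucosa and 8808 to 9486 UMIs in these tumors. Their thinned shares are not read as background, because hemoglobin counts lower them. Dusp1 in these cells was at 2.46 to 4.02 CPM in mucosa and 22.5, 11.01 and 10.3 CPM in tumors 1, 3 and 4. With hemoglobin left out of the total it was at 12.8 to 26.4 CPM in mucosa and 124, 66.8 and 48.2 CPM in these tumors, where plasma cell-like cells had 36.8, 47.0 and 39.1 CPM and T cell-like cells 167, 203 and 183 CPM of their full totals. The part of such background in the tumor-mucosa differences of other classes was not tested.

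Across the tumors, the epithelial levels of 8 of the 10 genes, all but Atf3 and Jund, were lower in each of the 4 tumors of mouse C than in each of the 6 tumors of mice A and B. The share of all genes apart in this way was not counted, so the count is not read as particular to these genes. Median mitochondrial shares of tumor epithelial-like cells were 4.05% to 5.66% in mouse C and 7.88% to 9.78% in mice A and B. The part of that share was not tested. Mouse C was also the youngest (20 weeks, against 24 and 23 weeks for mice A and B), so mouse and age cannot be told apart here. In absorptive epithelial-like cells alone Jun overlapped, at 376 to 798 CPM in mouse C and 374 to 1141 CPM in mice A and B. Jun was at 434 to 654 CPM in the epithelial cells and 180 to 244 CPM in the immune cells of the 4 tumors of mouse C, and at 853 to 1340 CPM and 342 to 490 CPM in the 6 tumors of mice A and B, with no overlap in either compartment. Egr1 was at 133 to 218 CPM against 262 to 494 CPM in the epithelial cells, and at 136 to 191 CPM against 178 to 241 CPM in the immune cells, where the mice overlapped. Junb was at 278 to 397 CPM against 531 to 719 CPM and Fos at 227 to 367 CPM against 408 to 684 CPM in the epithelial cells. Because the tumors formed separate groups, a pooled correlation of epithelial with immune levels is not given for these 8 genes. Within the 6 tumors of mice A and B it was r = 0.59 (Spearman rho 0.31, exact permutation p = 0.204 and 0.564, Benjamini-Hochberg adjusted over the 10 genes 0.333 and 0.705) for Jun. For Egr1 it was r = 0.52 (rho 0.71, exact permutation p = 0.267 and 0.136, adjusted 0.333 and 0.495). Jund, whose mice overlapped in both compartments, had r = 0.78 over the 10 tumors (permutation p = 0.0102, adjusted 0.0341) and rho = 0.71 (permutation p = 0.0269, adjusted 0.0898), and r = 0.90 without the 2 tumors farthest from the median (adjusted 0.0750). Centred on each mouse, Jund had r = 0.53 (permutation p = 0.105, adjusted 0.264), and none of the 10 genes passed the threshold. With T cell-like cells as the immune side, Jund had r = 0.53 (permutation p = 0.111, adjusted 0.368). The immune sums mix classes, and the part of their make-up in the correlation was not tested. Both compartments of a tumor share the library and its preparation.

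**Figure D5:**
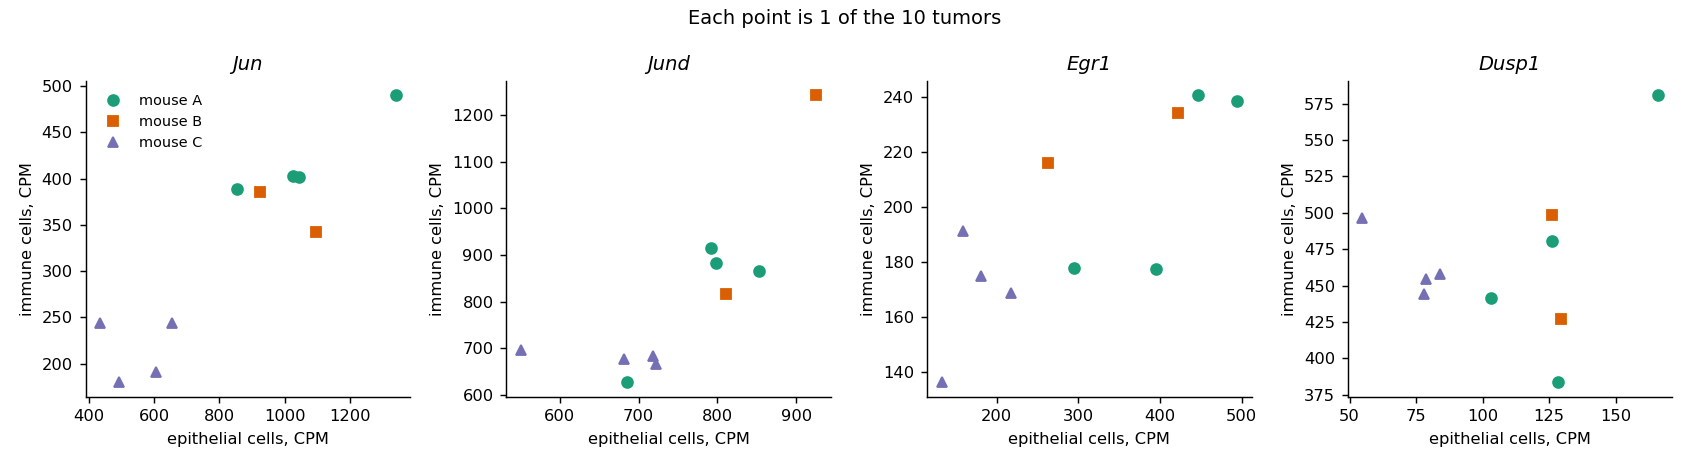
CPM in the immune cells (vertical axis) against CPM in the epithelial cells (horizontal axis) of each tumor for Jun, Jund, Egr1 and Dusp1, with a point per tumor marked by mouse. For Jun the 4 tumors of mouse C lie apart at the lower left (434 to 654 CPM epithelial, 180 to 244 CPM immune).

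Other genes of the early response and of stress were counted by list. Of 36 other immediate early genes tested in the all-cell sums, 33 were higher and 2 lower in tumors (35.9% and 33.9% of all genes). Their median log2 fold change was 2.61 against 0.02 over all genes. They were headed by the orphan nuclear receptor Nr4a3 (6.87 ± 0.42), the Fos relative Fosl1 (5.57 ± 0.44) and the matricellular gene Ccn2, which had no UMI in the mucosa and was at least 187-fold higher in tumors at a floor of 3 counts over the group. Klf4, a factor of differentiated epithelium (-1.24 ± 0.20), and Myc (-0.49 ± 0.10) were the 2 that were lower, and the smallest of the called increases was that of Cebpd (0.58 ± 0.20). Within classes 25 were higher and 2 lower of 33 in T cell-like cells (median 1.60), 22 of 27 were higher in B cell-like (1.25) and 15 of 28 in goblet-like cells (1.34). In addition 18 were higher and 1 lower of 30 in plasma cell-like (1.19) and of 34 in monocyte or macrophage-like cells (1.31), and 15 were higher and 2 lower of 31 in absorptive epithelial-like cells (0.74). In erythroid-like cells 0 of 8 were called by edgeR or DESeq2, with 2 at an unadjusted p under 0.05. The 27 upstream genes were the MAP kinases, their activators and the serum response factors that switch early genes on. Of these, 16 were higher and 7 lower in the all-cell sums (median 0.38), against 35.9% and 33.9% of all genes. They ran from Elk3 (2.72 ± 0.23) to Map2k6 (-1.53 ± 0.16). Within classes they ran from 7 higher and 3 lower of 21 in B cell-like cells, at a background of 18.2% and 21.4%, and 7 higher and 4 lower of 26 in T cell-like cells, near the background of 20.5% and 20.8% there, to 0 of 20 called by edgeR in goblet-like cells, where 4 had an unadjusted p under 0.05 and DESeq2 called 3 higher. Of 12 heat shock genes, chaperones that are induced by protein damage, 8 were higher and 2 lower in the all-cell sums (median 0.66), at the same 35.9% and 33.9%. They ran from the small chaperone Hspb1 (7.32 ± 0.50) to the mitochondrial chaperonin Hspd1 (-1.12 ± 0.14). Within classes 8 of 11 were higher in T cell-like, 6 of 10 in B cell-like, 4 of 12 in plasma cell-like (with Hspd1 lower), 4 of 12 in monocyte or macrophage-like, 4 of 10 in absorptive epithelial-like and 2 of 9 in goblet-like cells. The shares of all genes called higher in these classes were 20.5%, 18.2%, 9.52%, 6.32%, 13.1% and 4.31% in the same order.

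The levels of the 10 genes were also correlated over the pooled sums of 14 classes. Over 136 sums of a class in a library, with each class and tissue centred on its own mean, each member was correlated with the mean of the other members, from r = 0.69 for Dusp1 and Junb to 0.46 for Jund. The sums share libraries and depth, and no class was taken alone. The share of all genes with such values was not counted, so they are not read as particular to the members. Among 7725 other genes with enough counts, the pattern most like the mean of the 10 was that of the antiproliferative gene Btg2 (r = 0.67), the early response gene Ier5 (0.65), Ccnl1, which encodes a cyclin of RNA processing (0.65), Ifrd1 (0.63) and Dnajb9, a chaperone of the endoplasmic reticulum (0.61).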

How the data were processed

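Single-cell suspensions of 10 colon tumors and 3 adjacent mucosa samples were measured with the 10x Genomics 3′ kit. The authors ran Cell Ranger (6.0.0 per the submitters' processing notes, on mm10) and deposited filtered raw UMI counts per gene and barcode, unnormalized, for each library. The paper's methods name another version of Cell Ranger. The members and gene lists were chosen with earlier results of these data known, and the text names all 10 members, the lists' counts and the highest and lowest called genes of each list.

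Barcodes with at least 500 UMIs, 200 genes and under 25% mitochondrial UMIs were kept, and doublets scored against simulated ones were removed up to 0.8% per 1000 barcodes (10397 barcodes). Log counts of 2000 variable genes, reduced to 30 principal components, were clustered by the Leiden method (20 neighbors, resolution 1, leidenalg 0.10.2) into 38 clusters. Clusters were named from marker lists with at least 3 raised markers, by thresholds set after the cluster profiles had been seen, so differences from the study's own cell types may come from these names.

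UMIs were summed per library over all cells and per class with at least 20 cells, and tested with edgeR 4.0.16 (quasi-likelihood, TMM, filterByExpr; R 4.3.3), with Benjamini-Hochberg adjustment over all genes of the fit and a threshold of 0.05. The scripts were tested on simulated data. Cells of a library are not replicates. Libraries of a mouse were paired by the labels' animal codes, and deviations from the group means correlated within animals A, B and C at r = 0.127, 0.0591 and 0.109. DESeq2 1.42.0, library size alone, no low-count filter, doublets kept, a 10% mitochondrial limit, 1000 UMIs and 500 genes, the mouse as a block, the tumors of each mouse summed, and leaving out each library were tried. Fitting single clusters, leaving out erythroid-like cells and the covariation in mice A and B were added after seeing the data. Permutation tests used 100000 resamples or all of them. Intervals and floors cover counting error only. Positions were taken from GENCODE vM21 and promoter sequences from RefSeq (GRCm38.p6), which had entries for 8 of the 10 members.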

Additional observations from a re-analysis of the deposited data

Results flagged for a closer look

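A value was set apart where the highest or lowest library of a group of 4 to 10 lay farther from its neighbor than Dixon's 95% limit, which chance gives in about 1 of 20 groups, and 8 of 70 groups did. Tumor 10 was the high library in 5 of them, with Ier2 at 338.87 CPM and Jund at 1092.2 CPM in the all-cell sums, Junb at 3912 CPM in B cell-like cells, Ier2 at 172.51 CPM in absorptive epithelial-like cells and Jund at 593.66 CPM in monocyte or macrophage-like cells. B cell-like cells made up 22.6% of that tumor. Tumor 7 was high for Dusp1 (381.59 CPM) and Zfp36 (216.71 CPM) in goblet-like cells, and tumor 1, with 23 such cells, for Fos (986.83 CPM) in absorptive epithelial-like cells.

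The tumor-mucosa difference varied among the 7 cell classes, by a test of the difference itself in a single edgeR fit, for Atf3 (adjusted p = 3.69e-07), Dusp1 (0.0184), Egr1 (3.0031e-05), Ier2 (0.000206), Jun (8.93e-05), Junb (0.000133) and Jund (2.48e-05), 7 of 10 genes against 55.1% of 12831 genes that passed the same test. The count is near the share over all genes and is not read as particular to these genes. With TMM scaling and all libraries the fitted difference was above 0 in each tested class for Atf3, Dusp1, Egr1, Jun and Junb. It fell below 0 for Egr1 in plasma cell-like cells with library size alone (-0.21), for Egr1 in B cell-like cells without mucosa 1 (-0.36) and for Junb in erythroid-like cells with the mouse as a block (-0.0737). Ier2 and Jund each had 2 classes with a fitted value below 0 that did not pass the test.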

How the results depend on the processing

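Apart from leaving out libraries, 592 values of single genes kept their direction and side of the threshold, 38 lost a call, 29 gained a call and 36 changed sign. Leaving out each library gave 943, 55, 29 and 23. No value that changed sign had been called, and the cause was not tested. With library size alone these were the log2 fold changes of Ier2 (0.30) and Jund (0.31) in erythroid-like cells, of Fos (-0.0663), Ier2 (-0.35) and Jund (-0.26) in monocyte or macrophage-like cells and of Egr1 (-0.21) and Fos (-0.22) in plasma cell-like cells, and the immune minus epithelial differences of Ier2 (-0.0103) and Zfp36 (-0.15). Without the low-count filter they were Ier2 (0.12) and Jund (0.0237) in erythroid-like cells and the differences of Dusp1 (0.0111), Fos (0.13) and Jun (0.0531). With a 10% mitochondrial limit they were Zfp36 in absorptive epithelial-like cells (-0.15) and the differences of Dusp1 (0.0048), Fos (0.17) and Jun (0.10). With doublets kept they were Ier2 in monocyte or macrophage-like cells (-0.0248) and the differences of Fos (0.0109) and Jun (0.0503), and without erythroid-like cells that of Fos (0.00498). DESeq2 gave Ier2 -0.13 and Jund -0.033 in monocyte or macrophage-like cells, and the tumors of each mouse summed gave Zfp36 -0.031 in absorptive epithelial-like, Ier2 0.0332 in erythroid-like and -0.0323 in monocyte or macrophage-like cells. The replicate block by mouse gave Junb -0.0737 in erythroid-like cells and, beyond the Fos, Egr1 and Junb calls given above, changed no call. Of the correlations over tumors, those of Atf3 (-0.21), Fos (0.30) and Ier2 (-0.17) changed sign with T cell-like cells as the immune cells, Fos (0.16) and Junb (-0.0101) when centred on each mouse, Fos (0.57) and Junb (-0.80) in mice A and B, and Ier2 (-0.0129) without the 2 farthest tumors.

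Leaving out single libraries, the ranges of the values that changed sign were -0.36 to 0.65 for Egr1 in B cell-like, -0.0159 to 0.70 for Zfp36 in absorptive epithelial-like, -0.35 to 0.22 for Ier2 and -0.52 to 0.51 for Jund in erythroid-like, and -0.0758 to 0.28 for Ier2 and -0.051 to 0.33 for Jund in monocyte or macrophage-like cells. The immune minus epithelial ranges were -0.25 to 0.0841 for Dusp1, -0.15 to 0.16 for Fos, -0.96 to 0.19 for Fosb and -0.24 to 0.13 for Jun.

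The number of members called in erythroid-like cells was 2 without the low-count filter against 0, and in plasma cell-like cells 4 with library size alone against 7. Immune minus epithelial calls were 1 with library size alone and 5 with 1000 UMIs and 500 genes, without the filter or without erythroid-like cells, against 3. By Pearson's r, 3 correlations passed over all tumors (Jun and Egr1, whose tumors formed separate groups, and Jund), 0 when centred on each mouse, with T cell-like cells or in mice A and B, and 1 (Jun) without the 2 farthest tumors. By Spearman's rho 0 passed over all tumors. Leaving out single libraries gave 0 to 4 calls in absorptive epithelial-like, 3 to 7 in plasma cell-like, 7 to 10 in T cell-like, 7 to 8 in B cell-like, 4 to 8 in goblet-like and 4 to 6 in monocyte or macrophage-like cells, 8 to 10 in the all-cell sums, 3 to 5 for immune minus epithelial and 29 to 41 over all classes. Erythroid-like cells under 1000 UMIs and 500 genes could not be fitted, since sums of a single tissue were left. The 3 mucosa libraries and their 36 to 74 monocyte or macrophage-like cells limit what a difference in that class can show.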

Other observations

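Some groups of cells were too few for a comparison. Mast cell-like cells reached 20 cells in a single tumor, where Egr1 was at 1516 CPM, Fosb at 513 CPM, Jun at 1026 CPM and Junb at 2857 CPM. Fibroblast-like cells reached that number in 2 tumors, with medians of 807 CPM for Fos, 504 CPM for Egr1 and 477 CPM for Fosb. In the 47 neutrophil-like cells of mucosa 2, the only mucosa library with enough of them, Fos was at 1582 CPM, Ier2 at 923 CPM and Zfp36 at 791 CPM. These were above every tumor (443 to 1366, 153 to 314 and 391 to 776 CPM). Atf3, with no UMI, and Jund, at 866 CPM, were below every tumor (249 to 425 and 1049 to 1466 CPM). The other members, among them Dusp1 at 1299 CPM, were within the range of the tumors.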
